A study of Mus musculus with 24 samples.

Results

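The transcriptome of mpkCCD cells after 24 h of dDAVP was compared with that of cells given vehicle for the same 24 h, across the 11604 genes with a mean of at least 5 CPM (counts of a gene scaled to a library of 1 M counts, M for mega) in either group. These are 11604 of 29743 genes with enough counts to be tested and of 54432 genes listed. mpkCCD is an immortalised mouse line of epithelium of the kidney's cortical collecting duct, given in the labels as wild type on a C57BL/6 background at passage 10 to 11. Cells of both groups were grown on permeable filters for 6 days and then kept in minimal medium for 24 h, and dDAVP or vehicle was given from the basolateral side. The 24 h dDAVP group and the 24 h vehicle group held 3 libraries each, within a series of 24 libraries that also covers 3, 6 and 12 h, each time with its own vehicle libraries. The cells are a line and not a tubule, and the labels do not say whether the 3 libraries of a group were separate cultures, so p-values measure the spread between libraries, which may be technical.

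dDAVP (desmopressin) is a synthetic vasopressin analogue that acts on the V2 receptor (Avpr2), which couples through the stimulatory G protein to adenylyl cyclase and raises cAMP. In principal cells of the collecting duct, cAMP and protein kinase A bring the water channel Aqp2 to the apical membrane and also raise transcription of its gene. The transcription factor CREB and its relatives, which bind the cAMP response element, carry many transcriptional responses to cAMP, and phosphodiesterases limit the signal by degrading cAMP.

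The promoters of 4 genes that the results turn on are shown. They hold from 0 to 4 copies of the cAMP response element core in the 250 bases before the RefSeq start, with 1 copy in both Aqp2 and Rasl11a. The promoters are those of the largest rise (Aqp2), of a nuclear receptor known as an early responder to cAMP (Nr4a1), of a rise that was larger at 24 h than at 3 h (C3) and of the fall with the smallest p (Rasl11a). Sequences are from RefSeq, build GRCm38.p6, 5′ to 3′ along the gene, at chr15:99578806-99579055 (plus strand), chr15:101266596-101266845 (plus), chr17:57228137-57228386 (minus) and chr5:146844821-146845070 (plus). Capitals mark the core TGACG or, on the other strand, CGTCA.
Aqp2: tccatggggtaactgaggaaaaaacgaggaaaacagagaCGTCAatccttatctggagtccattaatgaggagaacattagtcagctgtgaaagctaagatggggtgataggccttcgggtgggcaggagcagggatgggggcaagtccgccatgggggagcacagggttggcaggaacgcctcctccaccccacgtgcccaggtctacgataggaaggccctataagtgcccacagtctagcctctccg
Nr4a1: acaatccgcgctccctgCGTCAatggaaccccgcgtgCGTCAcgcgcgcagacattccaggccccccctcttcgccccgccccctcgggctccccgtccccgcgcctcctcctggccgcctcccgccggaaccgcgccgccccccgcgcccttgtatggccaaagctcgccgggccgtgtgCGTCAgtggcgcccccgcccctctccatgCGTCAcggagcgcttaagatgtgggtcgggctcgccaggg
C3: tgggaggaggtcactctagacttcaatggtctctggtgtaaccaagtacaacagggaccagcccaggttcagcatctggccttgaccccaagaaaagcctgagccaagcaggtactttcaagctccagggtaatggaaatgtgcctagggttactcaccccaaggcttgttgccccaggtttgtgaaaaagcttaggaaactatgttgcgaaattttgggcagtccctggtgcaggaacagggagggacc
Rasl11a: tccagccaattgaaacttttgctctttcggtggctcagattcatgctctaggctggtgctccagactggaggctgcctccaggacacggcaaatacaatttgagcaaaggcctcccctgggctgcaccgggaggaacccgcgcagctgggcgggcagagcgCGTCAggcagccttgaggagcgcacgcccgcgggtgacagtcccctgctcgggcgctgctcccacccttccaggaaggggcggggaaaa
Aqp2 held 1 core, 211 to 207 bases before the start. Nr4a1 held 4, of which the first lay at 233 to 229 and the last at 40 to 36 bases before the start, and Rasl11a held 1 at 89 to 85 bases. No core was found in the C3 window. On either strand the core was present in 32.6% of the genes that rose (15 of 46 with a promoter in the table), in 23.5% of those that fell (4 of 17), in 31.8% of the 8677 genes of at least 5 CPM with a promoter and in 19.8% of all 27025 genes there. The full palindrome TGACGTCA, which contains the core on both strands, was present in 1 of the 46, 0 of the 17, 3.18% of the 8677 and 1.77% of all. A match is a run of letters and not a bound site. The RefSeq start of Nr4a1 lies inside the longer gene of the annotation used for its counts.

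The 3 dDAVP libraries held 18.9 to 23.1 M estimated counts and the 3 vehicle libraries 21.8 to 24.0 M. Olfactory and vomeronasal receptor genes, whose share of the counts varies widely between libraries of this series, held 0.208% ± 0.0455 of the counts in dDAVP and 0.233% ± 0.0677 in vehicle (SD, n = 3 each), a difference of -0.0258 percentage points (exact permutation test, two-sided, p = 0.7, where 0.1 is the smallest p that 3 against 3 can give). The dDAVP libraries were less alike than the vehicle libraries: the chi-square per gene between pairs was 8.28 to 12.6 among dDAVP and 4.37 to 6.50 among vehicle libraries. The mitochondrial genome held 3.27%, 4.01% and 3.74% of the counts in dDAVP replicates 1, 2 and 3, against 3.50%, 3.50% and 3.46% in vehicle. Principal cell markers were present, with 13 of 20 at 5 CPM or more, among them Aqp2, Avpr2, Scnn1a and Scnn1g. Of the markers of other cells, 2 of 15 for intercalated cells (Atp6v1b1 and Dmrt2), 1 of 15 for proximal tubule (Lrp2), 0 of 11 for thick limb and distal tubule, 2 of 10 for endothelium (Nrp1 and Egfl7), 0 of 12 for fibroblasts and pericytes and 2 of 14 for leukocytes (Csf1r and Cd68) reached that level, and none of these 7 passed the test between the groups. Of the listed markers below 5 CPM, Aqp6 of intercalated cells was called higher. In bulk samples such as these, fewer cells of a type and less RNA per cell cannot be told apart.

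A gene was called when its p, from the quasi-likelihood F test of edgeR adjusted by the Benjamini-Hochberg method over all 29743 genes tested, was under 0.05. Fold changes are log2 of dDAVP over vehicle ± SE, and values by library are in the order of replicates 1, 2 and 3. Among genes of at least 5 CPM, 67 were higher in dDAVP (0.577%) and 26 were lower (0.224%). Over all genes tested, 104 were called (0.35%), 75 of them higher and 29 lower. The rises reached further than the falls: 14 of the 67 were at least 2-fold and 40 at least 1.5-fold, with a median log2 fold change of 0.63, whereas 2 of the 26 falls were at least 2-fold and 6 at least 1.5-fold, with a median of -0.42. The median over all 11604 genes was -0.018. For 63 of the 67 rises and 22 of the 26 falls the 3 dDAVP libraries did not overlap the 3 vehicle libraries. Such absence of overlap was found in 7.24% of all 11604 genes upward and in 5.14% downward. A further 31 genes lay at an adjusted p between 0.05 and 0.1, of which 10 were higher and 21 lower. The gene lists used below were chosen with earlier results of these data known, so a count within a list describes it and is no test of it.

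**Figure D1:**
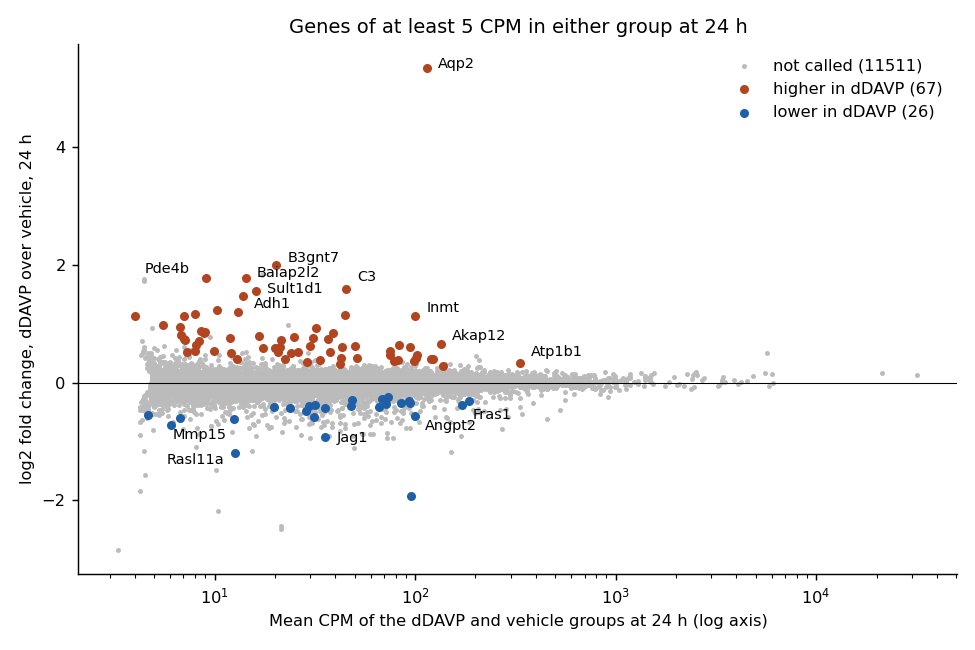
Each point is 1 of the 11604 genes, placed by the mean CPM of the dDAVP and vehicle groups at 24 h (log axis) and by the log2 fold change of dDAVP over vehicle. The 67 genes called higher reach up to 5.34 (Aqp2), while the 26 called lower lie between -0.25 and -1.93, among uncalled genes with changes of the same size.

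The rises held under more settings than the falls. With scaling by the median of ratios (RLE) in place of TMM, 68 genes were called, 62 higher and 6 lower, in place of 75 and 29. Without the receptor share as a covariate, 23 of the genes of at least 5 CPM were called higher (0.198%) and 1, Rasl11a, lower (0.00862%), and the fold changes of the 93 called genes moved by at most 0.11 for rises and 0.15 for falls (log2). When each library was left out in turn, the number of genes of at least 5 CPM called higher ranged from 36 (without vehicle replicate 1 or 2) to 81 (without dDAVP replicate 1). The number called lower was 212 without dDAVP replicate 1, 5 without vehicle replicate 2 and 4 without each of the other libraries. Of the 67 rises, 30 were called in all 6 of these fits. Of the 26 falls, 1 was, Rasl11a.

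**Figure D2:**
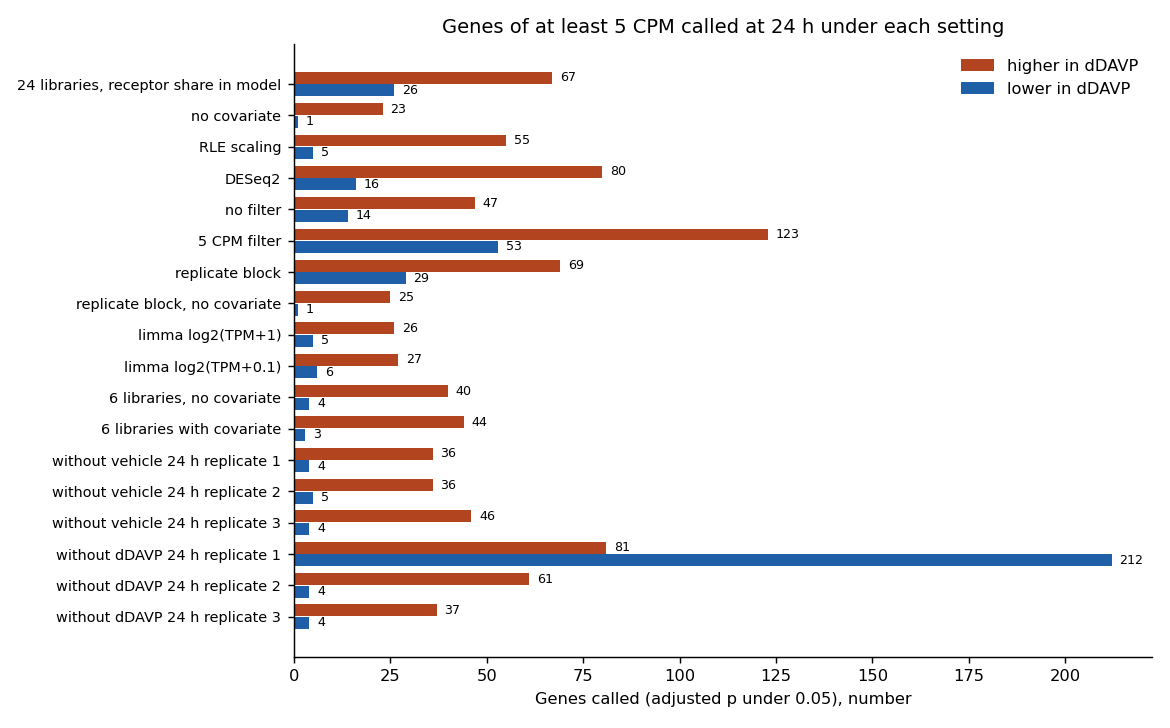
Bars give the number of genes of at least 5 CPM called higher (upper bar of each pair) and lower (lower bar) in dDAVP at 24 h under each setting. The number called higher lies between 23 and 123, and the number called lower between 1 and 212, the highest without dDAVP replicate 1.

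Water channels gave the largest response. Aqp2 (ENSMUSG00000023013, GRCm38 chromosome 15, 99579055 to 99584547), the vasopressin-regulated channel of the apical membrane, had 222, 214 and 235 CPM in dDAVP, against 5.47, 4.48 and 6.54 CPM in vehicle. The groups lay far apart, a 40.5-fold difference (log2 fold change 5.34 ± 0.14, adjusted p = 1.33e-19). Aqp5 (chromosome 15, 99590782 to 99594829), a channel known from secretory glands and lung that lies next to Aqp2, had 52.6, 72.5 and 60.2 CPM in dDAVP, against 28.6, 26.7 and 26.5 CPM in vehicle (log2 fold change 1.15 ± 0.10, adjusted p = 7.63e-08). These were the 2 of 10 listed water channels that reached 5 CPM. Aqp6, the next gene along (chromosome 15, 99601400 to 99605477) and an intracellular channel known from intercalated cells, was called below that level, with 3.38, 4.06 and 2.71 CPM in dDAVP, against 1.29, 1.20 and 0.461 CPM in vehicle (log2 fold change 1.73 ± 0.33, adjusted p = 0.0109, and lost without vehicle replicate 3 (0.0872)). Aqp3, the basolateral channel through which water leaves principal cells, had 4.47, 4.42 and 3.97 CPM in dDAVP, against 3.84, 3.60 and 4.01 CPM in vehicle (log2 fold change 0.17 ± 0.15, adjusted p = 0.816), and its groups overlapped.

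The called genes of cAMP signalling were a phosphodiesterase and an anchoring protein. Pde4b, which degrades cAMP, had 14.5, 12.9 and 14.7 CPM in dDAVP, against 3.45, 4.85 and 4.10 CPM in vehicle (log2 fold change 1.77 ± 0.13, adjusted p = 4.21e-09). Akap12, which anchors protein kinase A, had 164, 162 and 173 CPM in dDAVP, against 109, 108 and 94.2 CPM in vehicle (log2 fold change 0.66 ± 0.079, adjusted p = 1.76e-05). In both genes every dDAVP library lay above every vehicle library. They were the 2 called among 28 of this list at 5 CPM or more, with no fall, and the list's median log2 fold change was -0.0033. Over all 11604 genes 0.577% were called higher and 0.224% lower. The receptor itself, Avpr2, had 64.4, 66.1 and 59.5 CPM in dDAVP, against 65.6, 57.3 and 50.96 CPM in vehicle, with overlapping groups and an adjusted p of 0.780.

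Of 27 CREB-associated and immediate early genes at 5 CPM or more, the orphan nuclear receptors Nr4a1 and Nr4a2 were called higher and none lower (list median 0.041). The shares over all 11604 genes were 0.577% higher and 0.224% lower. Nr4a1 had 42.98, 33.3 and 41.3 CPM in dDAVP, against 20.8, 24.7 and 22.9 CPM in vehicle (log2 fold change 0.76 ± 0.13, adjusted p = 0.00253). For Nr4a2 the values were 11.3, 11.02 and 9.10 CPM in dDAVP, against 6.71, 6.09 and 6.13 CPM in vehicle (log2 fold change 0.71 ± 0.13, adjusted p = 0.00468). Neither gene's groups overlapped, although the call of Nr4a1 was lost without vehicle replicate 1 (0.0676) and that of Nr4a2 without vehicle replicate 2 (0.0564). Crem, whose short products repress cAMP-driven transcription, had 7.27, 10.5 and 7.94 CPM in dDAVP, against 7.86, 6.51 and 5.85 CPM in vehicle, with overlap (adjusted p = 0.441).

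Of 17 listed sodium transport genes at 5 CPM or more, 2 were called higher (Tmprss4 and Atp1b1) and none lower, beside 0.577% higher and 0.224% lower over all 11604 genes, and the list's median was 0.061. Tmprss4, a membrane serine protease that overlaps BC049352 on the opposite strand, had 10.1, 12.3 and 12.6 CPM in dDAVP, against 6.90, 6.00 and 5.94 CPM in vehicle (log2 fold change 0.86 ± 0.15, adjusted p = 0.00344). The groups of Tmprss4 were separate, and the call was lost without dDAVP replicate 3 (0.0624) or vehicle replicate 2 (0.0564). Atp1b1, the beta subunit of the sodium pump and the called rise of highest CPM, had 349, 418 and 365 CPM in dDAVP, against 310.1, 289.6 and 276 CPM in vehicle. Its groups did not overlap (log2 fold change 0.33 ± 0.071, adjusted p = 0.0329), but of the 6 fits with a library left out the call held in that without dDAVP replicate 1, and the adjusted p was 0.0567 to 0.204 in the other 5. Atp1b1 overlaps Nme7 on the opposite strand, and the cDNA kit does not mark strand.

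The subunits of the epithelial sodium channel did not pass the test. Scnn1g, the gamma subunit, had 16.5, 18.3 and 17.3 CPM in dDAVP, against 23.6, 21.2 and 21.4 CPM in vehicle, without overlap (log2 fold change -0.37 ± 0.15, adjusted p = 0.450). Scnn1a, the alpha subunit, had 76.5, 81.5 and 71.99 CPM in dDAVP, against 92.2, 92.9 and 80.5 CPM in vehicle (log2 fold change -0.26 ± 0.076, adjusted p = 0.201), and its groups overlapped. Scnn1b, the beta subunit, did not reach 5 CPM (adjusted p = 0.851). Sgk1, the kinase that keeps the channel at the membrane, had 7.99 to 9.15 CPM in dDAVP and 7.61 to 9.01 CPM in vehicle (adjusted p = 0.928).

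Nipal1 and Atp6v0a4, a carrier and a pump subunit outside that list, also rose. Nipal1, a magnesium transporter, had 11.4, 10.1 and 11.4 CPM in dDAVP, against 4.55, 5.21 and 5.11 CPM in vehicle (log2 fold change 1.16 ± 0.15, adjusted p = 5.68e-05), and its call held in all 6 fits with a library left out. Atp6v0a4, a proton pump subunit known from intercalated cells, and Tmem213, a membrane protein gene that lies inside it on the opposite strand (chromosome 6, 38109255 to 38115809), were both called. Both are named after their values were seen. Tmem213 had 19.1, 25.5 and 19.8 CPM in dDAVP, against 14.5, 10.3 and 11.1 CPM in vehicle (log2 fold change 0.79 ± 0.15, adjusted p = 0.0146). Atp6v0a4 had 7.23, 8.96 and 10.2 CPM in dDAVP, against 5.13, 5.35 and 5.21 CPM in vehicle (log2 fold change 0.74 ± 0.15, adjusted p = 0.0185). Neither gene's groups overlapped, Tmem213 lost the call without dDAVP replicate 2 (0.0929), dDAVP replicate 3 (0.0732), vehicle replicate 2 (0.194) or vehicle replicate 3 (0.0651), and Atp6v0a4 without every library but dDAVP replicate 1 (0.0572 to 0.223). Reads from any stretch that both genes transcribe cannot be assigned by strand, and how many such reads there were was not determined. The intercalated markers that reached 5 CPM were not called: Atp6v1b1 averaged 18.0 ± 6.97 CPM in dDAVP and 16.4 ± 6.03 CPM in vehicle (SD, n = 3 each), and the list's summed level was 28.6 to 39.2 CPM in dDAVP and 28.6 to 37.8 CPM in vehicle. Aqp6, which is on the same list but below 5 CPM, was called higher (log2 fold change 1.73 ± 0.33, adjusted p = 0.0109).

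Among defence genes, C3 rose. C3 (chromosome 17, 57203970 to 57228136), the central component of complement, had 68.2, 73.2 and 64.1 CPM in dDAVP, against 20.6, 19.98 and 25.9 CPM in vehicle, far outside the vehicle range (log2 fold change 1.60 ± 0.13, adjusted p = 7.19e-09). It was the 1 called gene of 7 in the complement and innate defence list at 5 CPM or more, whose median was -0.095. Lbp, the lipopolysaccharide-binding protein, had 46.4, 55.9 and 48.7 CPM in dDAVP, against 31.8, 26.6 and 24.9 CPM in vehicle, also without overlap (log2 fold change 0.83 ± 0.084, adjusted p = 7.70e-07). Lbp is on none of the lists and is named after its values were seen. By the same test, 0 of 21 interferon response genes, 0 of 12 NF-kB targets and chemokines and 0 of 11 prostaglandin genes were called, counts that at 0.577% called higher and 0.224% lower over all genes do not set these lists apart. Leukocyte markers summed to 44.6 to 48.2 CPM in dDAVP and 45.3 to 49.5 CPM in vehicle.

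Tgm2 (chromosome 2, 158116402 to 158146436), a transglutaminase that crosslinks proteins and overlaps Rprd1b on the opposite strand, had 17.02, 17.6 and 20.3 CPM in dDAVP, against 8.01, 7.29 and 8.48 CPM in vehicle (log2 fold change 1.21 ± 0.11, adjusted p = 7.08e-08). Gsdmc4 and Gsdmc2, near-identical neighbours of the gasdermin family of pore-forming proteins, were both called, and reads may be shared between them. Gsdmc2 is named after its values were seen. Gsdmc4 had 5.23, 5.75 and 5.46 CPM in dDAVP, against 3.36, 1.98 and 2.21 CPM in vehicle (log2 fold change 1.13 ± 0.21, adjusted p = 0.00805). Its groups did not overlap, but it lost the call without vehicle replicate 2 (0.0954) or vehicle replicate 3 (0.0779). The other 14 of the 15 largest rises kept it in all 6 fits with a library left out. Of those 15, 13 were also called without the receptor covariate, the exceptions being Gsdmc4 and Krt23 (adjusted p = 0.105 and 0.0724).

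Of 16 phase I and II genes, which conjugate or oxidise small molecules, at 5 CPM or more, 3 rose and none fell, with a list median of 0.23 against -0.018 over all 11604 genes. Over those 11604 genes 0.577% were called higher and 0.224% lower. Sult1d1, a sulfotransferase, had 19.9, 26.1 and 26.7 CPM in dDAVP, against 9.21, 8.63 and 6.50 CPM in vehicle (log2 fold change 1.55 ± 0.14, adjusted p = 7.08e-08). Adh1 (chromosome 3, 138260991 to 138290698), an alcohol dehydrogenase that also oxidises retinol, had 16.1, 24.6 and 21.1 CPM in dDAVP, against 6.33, 8.44 and 6.45 CPM in vehicle (log2 fold change 1.48 ± 0.21, adjusted p = 0.000216). Its neighbour Adh7 had 23.1, 34.3 and 37.7 CPM in dDAVP, against 18.9, 17.7 and 17.97 CPM in vehicle (log2 fold change 0.77 ± 0.13, adjusted p = 0.00262). In all 3 genes the groups were separate, and dDAVP replicate 1 was the lowest of the dDAVP libraries. Inmt, which methylates indolamines, had 124, 144 and 148 CPM in dDAVP, against 68.8, 62.4 and 54.8 CPM in vehicle (log2 fold change 1.13 ± 0.087, adjusted p = 5.91e-09), without overlap.

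The retinoid list, with 10 genes at 5 CPM or more, held Adh1 and Crabp2 as its 2 rises and no fall (median 0.047). Called shares over all 11604 genes, for this and the next lists, were 0.577% higher and 0.224% lower. Crabp2, which carries retinoic acid to the nucleus, had 44.03, 61.8 and 52.2 CPM in dDAVP, against 35.5, 34.1 and 31.3 CPM in vehicle (log2 fold change 0.61 ± 0.093, adjusted p = 0.000827). Arg2, the mitochondrial arginase, was the 1 called gene of 12 in arginine and polyamine metabolism. It had 8.51, 11.9 and 8.82 CPM in dDAVP, against 5.37, 3.18 and 4.38 CPM in vehicle (log2 fold change 1.12 ± 0.17, adjusted p = 0.000834), and overlaps Vti1b on the opposite strand. Dgat2, which makes triglyceride, was the 1 called gene of 23 in fatty acid synthesis and storage, with 9.79, 9.87 and 9.99 CPM in dDAVP, against 6.57, 5.86 and 6.45 CPM in vehicle (log2 fold change 0.64 ± 0.13, adjusted p = 0.0168, and lost without dDAVP replicate 3 (0.130), vehicle replicate 1 (0.0932) or vehicle replicate 2 (0.171)). In Crabp2, Arg2 and Dgat2 no dDAVP library fell within the vehicle range.

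Baiap2l2, a membrane-shaping protein of the I-BAR class, had 23.5, 21.7 and 21.7 CPM in dDAVP, against 5.66, 7.80 and 5.81 CPM in vehicle (log2 fold change 1.77 ± 0.13, adjusted p = 4.21e-09). Add3, the gamma-adducin that caps actin and joins it to spectrin, had 116, 114 and 114 CPM in dDAVP, against 78.97, 74.7 and 69.03 CPM in vehicle (log2 fold change 0.60 ± 0.072, adjusted p = 1.85e-05). These were the 2 rises, with no fall, among 31 genes of the actin and membrane curvature list, whose median was 0.027. Over all 11604 genes 0.577% were called higher and 0.224% lower. Arhgef3, a guanine nucleotide exchange factor, had 12.6, 14.3 and 16.2 CPM in dDAVP, against 4.84, 7.34 and 6.17 CPM in vehicle (log2 fold change 1.23 ± 0.14, adjusted p = 4.49e-06). Krt23, an acidic keratin, was the 1 called gene of 7 keratins, with 8.42, 10.7 and 7.56 CPM in dDAVP, against 4.70, 4.80 and 3.96 CPM in vehicle (log2 fold change 0.94 ± 0.16, adjusted p = 0.00215). No library of these 4 genes crossed into the other group's range.

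B3gnt7 (chromosome 1, 86302832 to 86307305), an enzyme that extends keratan sulfate chains, had 29.3, 33.8 and 34.8 CPM in dDAVP, against 7.82, 9.18 and 7.05 CPM in vehicle, the second largest rise (log2 fold change 1.99 ± 0.12, adjusted p = 3.31e-11). Of 9 mucins and apical glycoproteins, 3 rose and none fell, with a list median of 0.00095, beside 0.577% higher and 0.224% lower over all 11604 genes. Muc4, a membrane mucin that overlaps Muc20 on the opposite strand, had 36.6, 45.9 and 44.7 CPM in dDAVP, against 22.5, 22.1 and 21.2 CPM in vehicle (log2 fold change 0.92 ± 0.096, adjusted p = 1.44e-06). Lypd3, a membrane-anchored glycoprotein, had 44.98, 42.98 and 45.2 CPM in dDAVP, against 29.5, 32.3 and 30.00 CPM in vehicle (log2 fold change 0.52 ± 0.083, adjusted p = 0.00133). Prom1, a protein of apical membrane protrusions, had 128, 155 and 143 CPM in dDAVP, against 106, 106 and 103 CPM in vehicle (log2 fold change 0.40 ± 0.075, adjusted p = 0.00839). In all 3 the groups were separate, but Prom1 lost the call without dDAVP replicate 3 (0.0821), vehicle replicate 1 (0.110) or vehicle replicate 2 (0.0737).

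Within the MAP kinase and growth factor list, 3 of 22 genes rose and none fell (median -0.033), beside 0.577% higher and 0.224% lower over all 11604 genes. The receptor Egfr had 117, 106 and 113 CPM in dDAVP, against 88.4, 87.3 and 79.9 CPM in vehicle (log2 fold change 0.37 ± 0.072, adjusted p = 0.0153). Btc, a ligand of that receptor, had 21.9, 27.3 and 23.3 CPM in dDAVP, against 14.96, 14.5 and 17.7 CPM in vehicle (log2 fold change 0.59 ± 0.13, adjusted p = 0.0460). Dusp10, a phosphatase that inactivates stress-activated MAP kinases, had 8.18, 9.02 and 8.78 CPM in dDAVP, against 6.66, 6.41 and 4.79 CPM in vehicle (log2 fold change 0.52 ± 0.12, adjusted p = 0.0372). None of the 3 overlapped between groups. Egfr lost the call without dDAVP replicate 3 (0.136), vehicle replicate 1 (0.117) or vehicle replicate 2 (0.0962), and Btc without dDAVP replicate 2 (0.201), dDAVP replicate 3 (0.189), vehicle replicate 1 (0.284) or vehicle replicate 2 (0.312). Dusp10 kept it without dDAVP replicate 1 and lost it without each other library (0.0785 to 0.276).

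**Figure D3:**
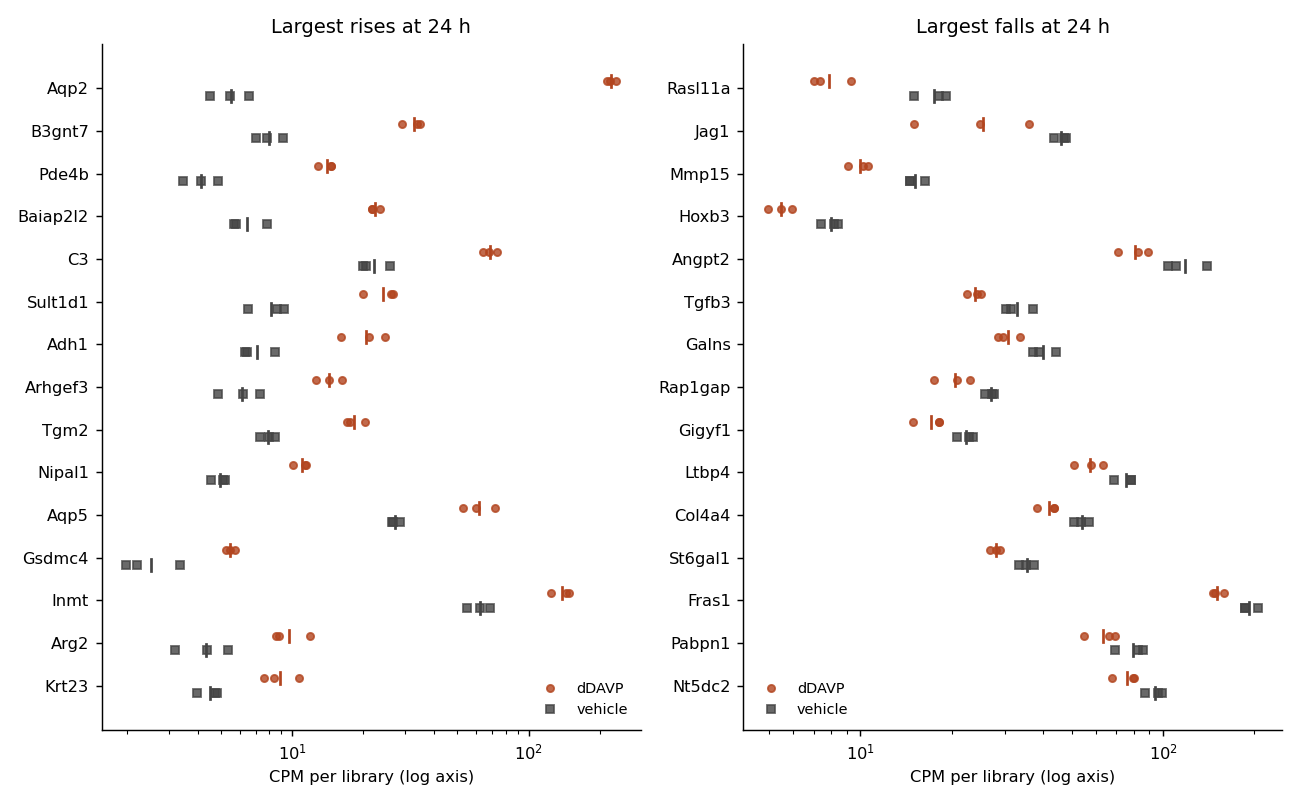
CPM (log axis) in each library for the 15 largest rises (left) and the 15 largest falls (right) among named genes without overlap, with dDAVP libraries (circles) above vehicle libraries (squares) and a bar at each mean. Aqp2 stands at 214 to 235 CPM in dDAVP, while in the falls the groups lie close, and Jag1 spreads from 15.03 to 36.1 CPM among dDAVP libraries.

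The remaining rises are named here after their values were seen, and had log2 fold changes between 0.27 and 0.97. Regulators of transcription or signalling were Cited4, Eya2, Arl4d, Rassf10, Rasgef1b, Cdk18, Adora1 (the adenosine A1 receptor), Tnfrsf21, Ghr (the growth hormone receptor) and Avpi1, a gene named for its induction by vasopressin. Avpi1 had 85.01, 96.8 and 86.5 CPM in dDAVP, against 67.5, 70.4 and 63.96 CPM in vehicle (log2 fold change 0.37 ± 0.060, adjusted p = 0.00167), without overlap, and lost the call without vehicle replicate 1 (0.0527). Enzymes of metabolism were Soat1, Sgpp2, Gdpd1, Idh1, Bcat1, Akr1c19, Sult1c2, Selenbp1, Man1a and Uap1l1, and the efflux pump Abcc3 rose as well. Soat1, which esterifies cholesterol, had 95.2, 117 and 95.1 CPM in dDAVP, against 70.96, 59.4 and 63.2 CPM in vehicle (log2 fold change 0.63 ± 0.088, adjusted p = 0.000214), and was called in all 6 fits with a library left out. Genes of trafficking and the cytoskeleton were Rab17, Tbc1d16, Chp1 and Synpo, and Tc2n and Malrd1 complete the genes with names. Uap1l1, the smallest rise, had 154, 149 and 155 CPM in dDAVP, against 129, 128 and 112 CPM in vehicle (log2 fold change 0.27 ± 0.056, adjusted p = 0.0204), without overlap, and kept the call without dDAVP replicate 2 but lost it without each of the other 5 libraries (0.0652 to 0.320). The last 5 were Olfr620, which is among the receptor genes of the covariate, and 4 genes with clone names, and 4 of these 5 overlapped between groups.

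Falls were fewer, smaller and less firm. Rasl11a (ENSMUSG00000029641, chromosome 5, 146845071 to 146847726), a Ras-like GTPase, had 7.04, 9.32 and 7.33 CPM in dDAVP, against 19.2, 18.2 and 15.02 CPM in vehicle. The groups were separate (log2 fold change -1.20 ± 0.12, adjusted p = 6.03e-07), and the call held in all 17 other settings of the plot of settings. Its relative Rasl11b had 84.3, 89.2 and 80.9 CPM in dDAVP, against 111, 104 and 98.4 CPM in vehicle (log2 fold change -0.34 ± 0.072, adjusted p = 0.0241). Rap1gap, which switches off the Ras-like GTPase Rap1, had 22.97, 20.9 and 17.5 CPM in dDAVP, against 27.7, 27.1 and 25.9 CPM in vehicle (log2 fold change -0.44 ± 0.091, adjusted p = 0.0250). These 3 were the called genes of 16 in the Ras group of small GTPases and their regulators, none of which rose, with a list median of -0.083 against -0.018 over all 11604 genes. Of those 11604 genes 0.224% were called lower and 0.577% higher. Rasl11b and Rap1gap had no overlap, kept the call without dDAVP replicate 1 and lost it without any other library (0.0954 to 0.230 and 0.103 to 0.352).

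Jag1 (chromosome 2, 137081456 to 137116644), a ligand of Notch, had 36.1, 24.9 and 15.03 CPM in dDAVP, against 47.8, 43.4 and 47.00 CPM in vehicle (log2 fold change -0.92 ± 0.21, adjusted p = 0.0496). The dDAVP libraries lay below vehicle but spread widely among themselves, and the adjusted p was 0.000986 without dDAVP replicate 1 and 0.129 to 0.444 without each of the other 5. Jag1 was the 1 called gene of 16 Wnt and Notch targets (median -0.10), beside 0.224% lower and 0.577% higher over all 11604 genes. Tgfb3, a TGF-beta ligand that overlaps Ttll5 on the opposite strand, had 24.2, 22.5 and 25.1 CPM in dDAVP, against 37.01, 31.4 and 30.3 CPM in vehicle (log2 fold change -0.48 ± 0.096, adjusted p = 0.0168). Its dDAVP libraries lay close together below vehicle, and it was the 1 called gene of 15 in the TGF-beta, matrix and mesenchymal list (median -0.10). Tgfb3 lost the call without dDAVP replicate 2 (0.204), dDAVP replicate 3 (0.0518), vehicle replicate 1 (0.173) or vehicle replicate 3 (0.0831).

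Angpt2, a ligand of the Tie2 receptor that overlaps Mcph1 on the opposite strand, had 82.4, 71.1 and 88.8 CPM in dDAVP, against 139.8, 110.2 and 104 CPM in vehicle (log2 fold change -0.57 ± 0.11, adjusted p = 0.0155, lost without dDAVP replicate 2 (0.200) or vehicle replicate 1 (0.178)). Fras1, a protein of the epithelial basement membrane, had 146, 148 and 159 CPM in dDAVP, against 205, 187 and 186 CPM in vehicle (log2 fold change -0.38 ± 0.075, adjusted p = 0.0168, lost without dDAVP replicate 2 (0.167), vehicle replicate 1 (0.130) or vehicle replicate 3 (0.113)). Mmp15, a membrane-bound matrix metalloproteinase, had 10.2, 9.08 and 10.6 CPM in dDAVP, against 14.6, 16.3 and 14.6 CPM in vehicle (log2 fold change -0.62 ± 0.12, adjusted p = 0.0140, lost without dDAVP replicate 2 (0.168), dDAVP replicate 3 (0.0602), vehicle replicate 2 (0.165) or vehicle replicate 3 (0.0744)). In these 3 genes every dDAVP library lay below every vehicle library. Ltbp4, which binds latent TGF-beta in the matrix, had 63.1, 50.8 and 57.6 CPM in dDAVP, against 78.4, 78.4 and 68.8 CPM in vehicle (log2 fold change -0.42 ± 0.086, adjusted p = 0.0219). Col4a4, a chain of basement membrane collagen, had 43.6, 43.6 and 38.4 CPM in dDAVP, against 56.9, 53.3 and 50.9 CPM in vehicle (log2 fold change -0.40 ± 0.082, adjusted p = 0.0204). Ltbp4 and Col4a4 were also separate between groups, kept the call without dDAVP replicate 1 and lost it without any other library (0.0644 to 0.270 and 0.0789 to 0.226).

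The other named falls had log2 fold changes from -0.35 to -0.60. Hoxb3, a homeobox factor, had 4.94, 5.93 and 5.46 CPM in dDAVP, against 8.44, 8.17 and 7.42 CPM in vehicle (adjusted p = 0.0410), and its call was lost whichever library was left out (0.0994 to 0.194). Galns, a lysosomal sulfatase that degrades keratan sulfate and overlaps Gm20388 on the opposite strand, had 29.7, 33.7 and 28.5 CPM in dDAVP, against 38.98, 44.4 and 37.00 CPM in vehicle (adjusted p = 0.0191, lost without dDAVP replicate 2 (0.0950), dDAVP replicate 3 (0.200), vehicle replicate 2 (0.226) or vehicle replicate 3 (0.146)). St6gal1, which adds sialic acid to N-linked sugars, had 28.1, 29.00 and 26.8 CPM in dDAVP, against 35.2, 37.4 and 33.5 CPM in vehicle (adjusted p = 0.0349). None of these 3 overlapped between the groups. Pabpn1, the nuclear poly(A)-binding protein, which shares its locus with Gm20521 on the same strand, had 66.1, 69.3 and 54.8 CPM in dDAVP, against 85.5, 82.7 and 69.4 CPM in vehicle (adjusted p = 0.0392). Gigyf1, a translational repressor that overlaps Epo on the opposite strand, had 18.2, 18.2 and 14.9 CPM in dDAVP, against 23.5, 22.8 and 20.8 CPM in vehicle (adjusted p = 0.0395). Nt5dc2, which overlaps Stab1 on the opposite strand, had 80.2, 79.7 and 67.98 CPM in dDAVP, against 95.8, 99.03 and 87.1 CPM in vehicle (adjusted p = 0.0329). These 3 were separate between groups too, and they and St6gal1 kept the call without dDAVP replicate 1 and lost it without any other library, at an adjusted p of 0.0757 to 0.248 for St6gal1, 0.133 to 0.414 for Pabpn1, 0.178 to 0.430 for Gigyf1 and 0.104 to 0.391 for Nt5dc2. The remaining 10 falls, named after their values were seen, were Smpd1, the acid sphingomyelinase, Atp11a, a phospholipid flippase, Ctxn1, Rogdi and 6 genes with clone names. Smpd1 was separate between groups, while Atp11a, Ctxn1 and Rogdi overlapped. The calls of Ctxn1 and Rogdi were lost whichever library was left out (0.0728 to 0.249 and 0.0705 to 0.331). Smpd1 kept the call without dDAVP replicate 1 and lost it without any other library (0.0907 to 0.221). Atp11a lost it without dDAVP replicate 3 (0.189) or any vehicle library (0.0610 to 0.138). Among the genes with clone names is Gm12918, a processed pseudogene that may share reads with its parent gene, with 44.98, 56.4 and 23.3 CPM in dDAVP, against 158, 190.5 and 101 CPM in vehicle (log2 fold change -1.93 ± 0.39, adjusted p = 0.0178). Its groups were separate, but it lost the call without dDAVP replicate 2 (0.0565), dDAVP replicate 3 (0.218), vehicle replicate 1 (0.0676) or vehicle replicate 2 (0.141). At 6 h the mean of Gm12918 was 168 CPM in dDAVP and 44.0 CPM in vehicle, the other direction (log2 fold change 1.32, adjusted p = 0.549).

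In 17 of the 26 falls dDAVP replicate 3 was the lowest of the 3 dDAVP libraries, in 6 replicate 2 and in 3 replicate 1. The 212 genes called lower without dDAVP replicate 1 stood at a median of 0.933, 0.733 and 0.554 times the vehicle mean in dDAVP replicates 1, 2 and 3, and at 1.02, 1.03 and 0.953 times in vehicle replicates 1, 2 and 3. These genes were chosen by that fit, so the values describe it. Among them 22 were also called lower in the fit of all 24 libraries. The part of this library spread in the 26 falls was not tested.

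How the effects at 24 h compared with earlier ones was read from the same model at 3, 6 and 12 h, where 172 (1.48%), 76 (0.655%) and 57 (0.491%) of the 11604 genes were called higher and 30 (0.259%), 14 (0.121%) and 22 (0.19%) lower. Of the 67 genes higher at 24 h, 39 were also called higher at 3 h, 39 at 6 h and 43 at 12 h, 32 at all 3 earlier times and 19 at none. Of the 26 lower at 24 h, 3 were also called lower at 3 h, 4 at 6 h and 5 at 12 h. Rasl11a was the 1 fall called at all 3 earlier times, and 19 were called at none. Read the other way, 43 of the 57 genes higher at 12 h (75.4%) and 39 of the 172 higher at 3 h (22.7%) were called higher at 24 h. A call at one time and not at another does not show that the effects differ, so the 24 h effect was also tested against the 3 h effect, each with its own vehicle libraries.

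**Figure D4:**
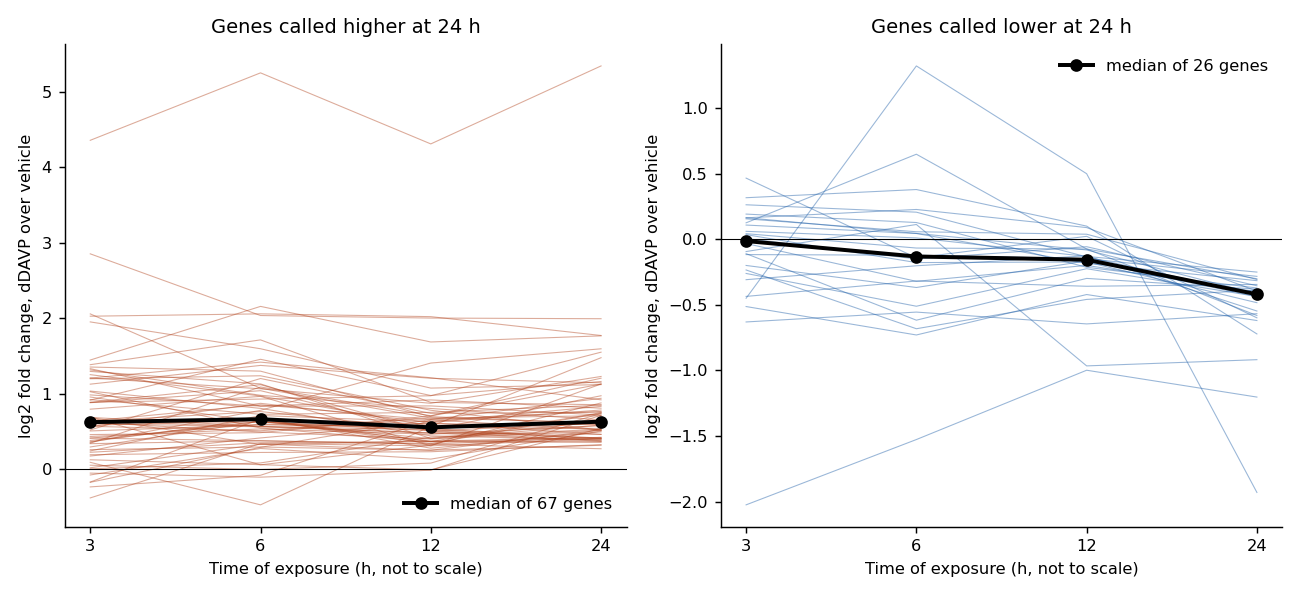
Each thin line is 1 gene called higher (67, left) or lower (26, right) at 24 h, drawn by its log2 fold change of dDAVP over vehicle at 3, 6, 12 and 24 h, and the thick line is the median. The medians of the rises are 0.63, 0.66, 0.56 and 0.63 and those of the falls -0.013, -0.13, -0.16 and -0.42, the 24 h values being those the genes were chosen by. All values are from the fit with the receptor share as a covariate, a share that differed between the groups at 3 h and 6 h.

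In the 24 h effect minus the 3 h effect, 12 genes of at least 5 CPM were called positive (0.103%) and 47 negative (0.405%). These calls depend on the model. Over all genes tested, 64 passed this contrast, against 6 without the receptor covariate and 14 with RLE scaling. With limma 4 passed, and with DESeq2 61. Of the 67 rises, 9 were larger at 24 h than at 3 h, 10 smaller, and 48 did not pass. C3 had the smallest p of the 9: its log2 fold change was 0.36 at 3 h, 0.78 at 6 h, 1.41 at 12 h and 1.60 at 24 h, and the 24 h effect exceeded the 3 h effect by 1.24 ± 0.18 (adjusted p = 0.00128). The mean CPM of C3 at 24 h was 68.5 in dDAVP and 22.1 in vehicle, and at 3 h it was 26.6 in dDAVP and 19.1 in vehicle. The other rises that were larger at 24 h were Gsdmc4 (difference 1.51, adjusted p = 0.0253), Krt23 (1.11, 0.0376), Adh7 (0.998, 0.0193), Sult1c2 (0.92, 0.0348), Tgm2 (0.86, 0.0105), Inmt (0.67, 0.0185), Lbp (0.59, 0.0378) and Aqp2. The log2 fold change of Aqp2 was already 4.36 at 3 h and was 5.34 at 24 h (difference 0.98 ± 0.20, adjusted p = 0.0348). Adh1 had log2 fold changes of 0.094, -0.47 and 0.57 at 3, 6 and 12 h and 1.48 at 24 h. Its difference of 1.39 ± 0.32 missed the threshold (adjusted p = 0.0753). At 6 h Adh1 had a mean of 5.2592 CPM in dDAVP and 4.9994 CPM in vehicle. These means are opposite in direction to its fitted -0.47, which was not called.

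The 10 rises with a smaller effect at 24 h than at 3 h were still called at 24 h. Nr4a2 had a log2 fold change of 2.06 at 3 h, 1.07 at 6 h, 0.68 at 12 h and 0.71 at 24 h (24 h minus 3 h, -1.35 ± 0.18, adjusted p = 0.000577). B3gnt7 had 2.85 at 3 h and then 2.04, 2.003 and 1.99 (difference -0.86 ± 0.18, adjusted p = 0.0305). The others, with their differences, were Crabp2 (-0.75), Lypd3 (-0.68), Gdpd1 (-0.67), Soat1 (-0.67), Akap12 (-0.66), Add3 (-0.65), Chp1 (-0.65) and Cdk18 (-0.54). Among those that did not pass, Pde4b had 2.03, 2.06, 2.02 and 1.77 (difference -0.26 ± 0.19, adjusted p = 0.819). Aqp5 had 1.13, 1.38, 1.21 and 1.15 (difference 0.018 ± 0.15, adjusted p = 0.998). Nr4a1 had 0.52, 1.20, 0.74 and 0.76 (difference 0.24 ± 0.18, adjusted p = 0.823), and was not called at 3 h (adjusted p = 0.0814).

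Of the 47 genes whose 24 h effect was below their 3 h effect, 22 had been called higher at 3 h and were not called at 24 h. The smallest p was that of Smpd2, a neutral sphingomyelinase, with a log2 fold change of 0.71, 0.29, 0.077 and -0.082 at 3, 6, 12 and 24 h (difference -0.79 ± 0.088, adjusted p = 6.56e-05). At 24 h it had 48.5, 55.2 and 45.8 CPM in dDAVP, against 53.03, 52.7 and 47.5 CPM in vehicle, with overlap. Cerk, which phosphorylates ceramide, had 1.64 at 3 h and 0.18 at 24 h (difference -1.46 ± 0.21, adjusted p = 0.00128). Vwa2 (-0.97, adjusted p = 0.000681), Dop1b (-0.86, 0.000577), Tecpr1 (-0.76, 0.000647) and 2 genes with clone names, Gm42427 (-0.54, 0.00128) and Gm35279 (-0.66, 0.00194), were likewise called at 3 h and uncalled at 24 h. In Tecpr1, Gm42427 and Gm35279 every dDAVP library still lay above every vehicle library at 24 h, as in 7.24% of all 11604 genes. Their log2 fold changes were 0.25, 0.22 and 0.25, while the groups of Vwa2, Dop1b and Cerk overlapped.

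In the fit with the receptor covariate, 8 of the 26 falls were lower at 24 h than at 3 h relative to vehicle, 0 were less low, and 18 did not pass. Those with a name were Hoxb3 (difference -1.07, adjusted p = 0.0105), Gigyf1 (-0.69, 0.0218), Ltbp4 (-0.58, 0.0451), Pabpn1 (-0.56, 0.0376) and Atp11a (-0.42, 0.0413). Gm35240 and 4930420G21Rik, with clone names, also passed. Their mean CPM at 3 h was 48.0 and 12.2 in dDAVP, against 65.3 and 15.6 in vehicle. These means are opposite in direction to the fitted 0.16 and 0.32 at 3 h. Rasl11a had log2 fold changes of -2.03, -1.53, -0.998 and -1.20 at 3, 6, 12 and 24 h (difference 0.82 ± 0.18, adjusted p = 0.0582). Angpt2 had -0.63, -0.55, -0.65 and -0.57, and was called at 3, 12 and 24 h. Rasl11b, called at the same 3 times, had -0.44, -0.32, -0.36 and -0.34. The mean CPM of Rasl11b at 6 h was 60.3 in dDAVP and 56.7 in vehicle, opposite in direction to its fitted -0.32.

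Some early falls were not called at 24 h. Avpr2 was called lower at 3 h (log2 fold change -0.52, adjusted p = 0.000588) and stood at -0.11, 0.015 and 0.094 at 6, 12 and 24 h (24 h minus 3 h, 0.61 ± 0.11, adjusted p = 0.0105). The mean CPM of Avpr2 at 6 h was 41.2 in dDAVP and 34.6 in vehicle, opposite in direction to its fitted -0.11. Scnn1g had -1.09, -0.99, -0.59 and -0.37 at 3, 6, 12 and 24 h, called at 3 h and 6 h, and its difference of 0.72 ± 0.23 did not pass (adjusted p = 0.281). Ptger1, a prostaglandin E2 receptor, had -1.57, -1.62, -0.57 and -0.067 (difference 1.51 ± 0.34, adjusted p = 0.0678). At 24 h Ptger1 had 19.4, 30.6 and 39.9 CPM in dDAVP, against 31.9, 27.5 and 34.6 CPM in vehicle, and the dDAVP libraries spanned the vehicle range. Elf3, an epithelial transcription factor called higher at 3 h, had 272, 279 and 282 CPM in dDAVP, against 271, 269 and 248 CPM in vehicle at 24 h, just without overlap (adjusted p = 0.906).

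**Figure D5:**
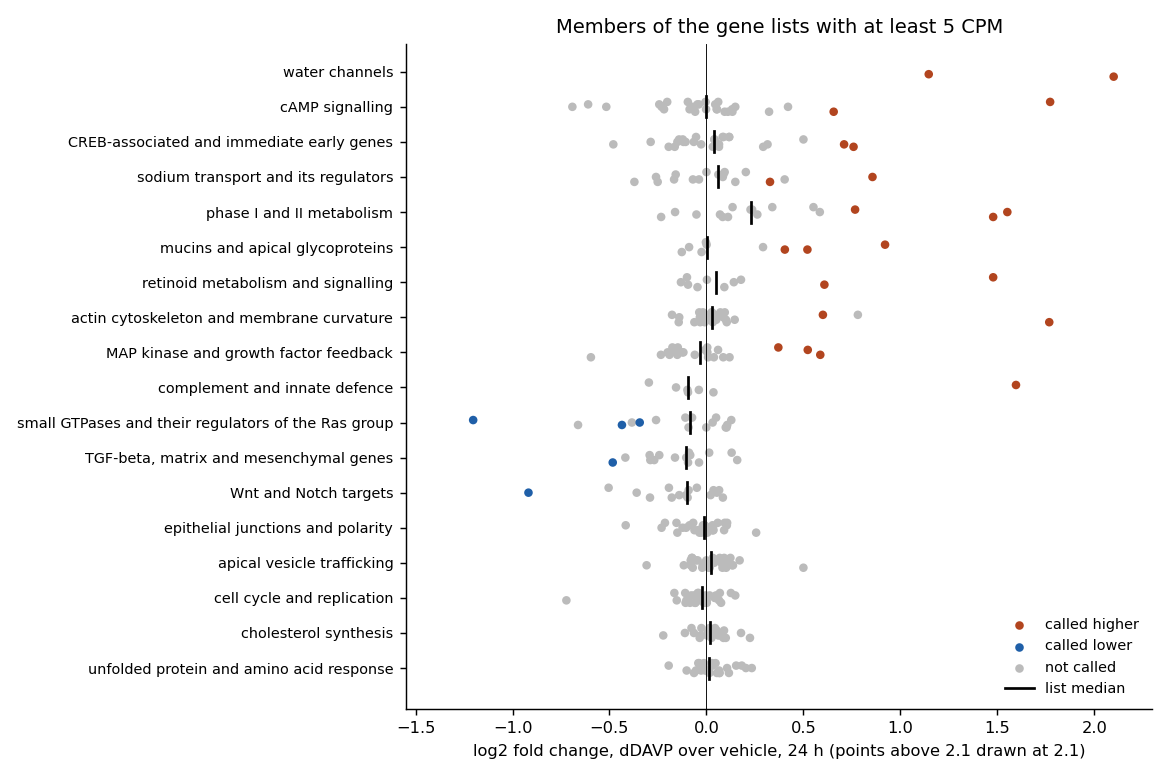
Log2 fold change of dDAVP over vehicle at 24 h for each gene of at least 5 CPM in 18 of the lists, with called rises, called falls and uncalled genes in different colours and a bar at the list median; Aqp2, at 5.34, is drawn at 2.1. The medians drawn lie between -0.10 and 0.23 (no bar is drawn for the 2 water channels).

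No gene was called at 24 h among 34 cell cycle genes, 24 genes of cholesterol synthesis, 28 of the unfolded protein and amino acid response, 12 heat shock genes, 18 NRF2 and redox targets and 25 of glycolysis and the hypoxia response. None was called among 30 genes of epithelial junctions and polarity, 33 of apical vesicle trafficking, 18 identity transcription factors of the collecting duct, 16 clock genes and 9 potassium channel and ammonia transport genes. The 77 cytosolic ribosomal protein genes, 85 nuclear respiratory chain genes and 13 mitochondrial genome genes held none either. With 0.577% of all 11604 genes called higher and 0.224% lower, a count of 0 in lists of these sizes does not set them apart from other genes. Medians of these lists ran from -0.031 (clock) to 0.12 (mitochondrial genome). Aqp2 was the 1 called gene of 9 in the osmotic response list and of 13 principal cell markers, and Olfr620 the 1 called of 114 olfactory and vomeronasal receptor genes at 5 CPM or more.

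A further 11 genes were called below 5 CPM, 8 higher and 3 lower, and are named after their values were seen. Cited1, a transcriptional coregulator, had 2.28, 3.93 and 3.41 CPM in dDAVP, against 0.288, 0.600 and 0.323 CPM in vehicle (log2 fold change 2.95 ± 0.30, adjusted p = 8.91e-07), and was called higher at 3, 6 and 12 h too. Ramp3, a partner protein of receptors of the calcitonin family, had 1.43, 2.48 and 1.49 CPM in dDAVP, against 0.863, 0.646 and 0.691 CPM in vehicle (log2 fold change 1.21 ± 0.24, adjusted p = 0.0178), and its log2 fold change was 3.70 at 3 h. Rgs2, which speeds the shut-off of G protein signals, had 3.61, 3.27 and 2.66 CPM in dDAVP, against 2.11, 1.75 and 1.94 CPM in vehicle (adjusted p = 0.0349). These 3 genes were separate between groups, but Ramp3 lost the call without dDAVP replicate 2 (0.155), vehicle replicate 1 (0.0727), vehicle replicate 2 (0.171) or vehicle replicate 3 (0.0661), and Rgs2 kept it without dDAVP replicate 3 and lost it without each other library (0.0935 to 0.218). Besides Aqp6, the other low rises were Crybb1, Fetub, Slfn2 and a gene with a clone name, and the 3 low falls all had clone names. At the level that bounds the set, the lowest gene inside, Prss36, reached 5.0013 CPM in its higher group, and the highest outside, Gm21847, 4.999 CPM.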

How the data were processed

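RNA of mpkCCD cells was made into cDNA with a SMART-Seq HT kit, per the labels' protocols; such cDNA does not mark strand. The authors deposited estimated counts per gene for 24 libraries and TPM values beside them; the submitters' processing notes name Salmon 0.14.10 and, as genome build, GRCm38.p6. Of 54432 gene IDs, 54346 were named from GENCODE M21, and 43.6% of the deposited count values hold fractions and were rounded.

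Counts were tested with edgeR 4.0.16 in R 4.3.3 by the quasi-likelihood F test: TMM scaling (factors 0.8138 to 1.326), genes kept by filterByExpr over 8 groups, 1 mean per group, and as a covariate the log2 of each library's share of counts from 1962 receptor genes for smell and pheromones (Olfr and Vmn). The common dispersion was 0.00635, and 0.0366 without that covariate. CPM use the scaled library sizes. Adjusted p-values are Benjamini-Hochberg values over all genes tested. Alternatives were no covariate, RLE scaling, DESeq2 1.42.0, other filters, a replicate block, limma 3.58.1 on log2(TPM + 1) and log2(TPM + 0.1), the 6 libraries alone and each library left out. The scripts were tested on simulated data. The members and the 42 lists were chosen with earlier results of these data known.

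Named genes were the 15 largest called rises and falls without overlap and with a gene name, the 5 of highest CPM each way, up to 3 of smallest p per list, the 10 of smallest p in the 24 h minus 3 h contrast and 15 fixed names; 1 of the called genes is not reported here. Same-numbered libraries did not all deviate together, so no pairing was used, although 3 libraries per group cannot exclude one.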

Additional observations from a re-analysis of the deposited data

Results flagged for a closer look

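Shown here are 22 named genes whose effect of dDAVP at 24 h differed from that at 3 h. The edgeR test of the difference itself was used (adjusted p under 0.05), each time against its own vehicle libraries. Other genes named in the Results, such as Adh7 and Crabp2, passed this test as well. Of all genes tested 64 passed, but 6 did without the receptor covariate. Values in parentheses are the log2 difference, 24 h minus 3 h, and its adjusted p. The effect was more positive at 24 h in C3 (1.24, 0.00128), Tgm2 (0.86, 0.0105), Inmt (0.67, 0.0185), Gsdmc4 (1.51, 0.0253), Aqp2 (0.98, 0.0348) and Krt23 (1.11, 0.0376), all called higher at 24 h. Avpr2 (0.61, 0.0105) was called lower at 3 h and was not called at 24 h. The effect was less positive at 24 h in Nr4a2 (-1.35, 0.000577), Chp1 (-0.65, 0.00160), Akap12 (-0.66, 0.00685) and B3gnt7 (-0.86, 0.0305), which were called higher at both times, and in Smpd2 (-0.79, 6.56e-05), Dop1b (-0.86, 0.000577), Tecpr1 (-0.76, 0.000647), Vwa2 (-0.97, 0.000681), Gm42427 (-0.54, 0.00128), Cerk (-1.46, 0.00128) and Gm35279 (-0.66, 0.00194), which were called higher at 3 h and not at 24 h. It was more negative at 24 h in Hoxb3 (-1.07, 0.0105), Gigyf1 (-0.69, 0.0218), Pabpn1 (-0.56, 0.0376) and Ltbp4 (-0.58, 0.0451), which were called lower at 24 h and not at 3 h.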

How the results depend on the processing

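Beside 104 genes called at 24 h, of which 67 higher and 26 lower at 5 CPM or more, and 64 called in the 24 h effect minus the 3 h effect, the count of calls moved with the model. Without the receptor covariate these 4 counts were 25, 23, 1 and 6. With RLE scaling they were 68, 55, 5 and 14. DESeq2 called 80 higher and 16 lower, and without a filter 47 and 14 were called. With a filter at 5 CPM (13123 genes tested) the first 3 counts were 177, 123 and 53. With limma the counts were 33, 26, 5 and 4 on log2(TPM + 1) and 39, 27, 6 and 4 on log2(TPM + 0.1). In the 6 libraries at 24 h alone, 45, 40 and 4 were called without the covariate and 50, 44 and 3 with it. Leaving out 1 library gave 44 to 319 calls, 36 to 81 higher, 4 to 212 lower and 23 to 240 in the 24 h minus 3 h contrast, the highest each time without dDAVP replicate 1. Why the counts moved was not tested.

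Same-numbered libraries had correlations of deviations of -0.243, 0.193 and 0.286. These differ in sign and show no clear pairing by number, but 3 libraries per group are too few to exclude one. With a replicate block 110 genes were called, 69 higher and 29 lower at 5 CPM or more, and 57 in the contrast, and with the block and without the covariate 27, 25, 1 and 9. Libraries did not all correlate best with their own number: dDAVP replicate 1 did so with vehicle replicate 3 (0.200), dDAVP replicate 2 with vehicle replicate 1 (0.309) and dDAVP replicate 3 with vehicle replicate 3 (0.286).

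All 93 called genes kept their direction under each alternative that gave a value. Uncalled genes near 0 changed sign: Dop1b was -0.067 and -0.078, Aqp3 -0.19 and -0.26 and Cerk -0.0096 and -0.018 with limma on log2(TPM + 1) and log2(TPM + 0.1). Ptger1 ranged from -0.36 to 0.17 and Vwa2 from -0.17 to 0.011 with 1 library left out. Of the 29743 genes tested, 2643 had an unadjusted p under 0.05.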

Other observations

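A set of uncalled genes stood at different levels in the 3 dDAVP libraries at 24 h; they are named after their values were seen, with no test of the pattern, and its cause was not tested. Gnas, the stimulatory G protein alpha subunit, had 483, 389 and 242 CPM in dDAVP, against 541, 570.1 and 500.1 CPM in vehicle. Prkaca, the catalytic subunit of protein kinase A, had 107, 61.7 and 29.2 CPM in dDAVP, against 105, 106 and 94.1 CPM in vehicle. Both lay near or just below vehicle in dDAVP replicate 1 and lowest in replicate 3. Mcl1, which protects cells from apoptosis, had 107, 65.9 and 42.7 CPM in dDAVP, against 116, 123 and 113 CPM in vehicle. The cell cycle factor E2f1 had 70.5, 42.8 and 25.3 CPM in dDAVP, against 68.3, 74.4 and 78.4 CPM in vehicle, and Hras, a Ras GTPase, had 36.5, 21.5 and 14.1 CPM in dDAVP, against 35.00, 39.8 and 34.5 CPM in vehicle. The adjusted p of these 5 genes was 0.242, 0.507, 0.360, 0.337 and 0.471 in the edgeR fit.

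Among the 212 genes of at least 5 CPM called lower without dDAVP replicate 1, 204 are protein coding and dDAVP replicate 3 was the lowest dDAVP library in 189 (89.2%, against 32.7% of all 11604 genes). Relative to the vehicle mean of each time, the median of these genes ranged from 1.14 to 1.43 over the 3 dDAVP libraries of 3 h, from 1.48 to 1.63 over those of 6 h and from 0.629 to 0.842 over those of 12 h. The same median over all 11604 genes ranged from 1.01 to 1.24, from 1.18 to 1.31 and from 1.04 to 1.06 over these libraries. Over the vehicle libraries it ranged from 0.674 to 1.28 (3 h), from 0.920 to 1.12 (6 h) and from 0.892 to 1.23 (12 h), beside 0.865 to 1.13, 0.977 to 1.03 and 0.847 to 1.17 over all genes, so that vehicle libraries of 1 time differed among themselves as well.

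Of the 31 genes at an adjusted p between 0.05 and 0.1, 10 were higher and 21 lower. The few described here were named after their values were seen and do not represent that balance. Fos, an immediate early gene, had 35.2, 32.9 and 35.5 CPM in dDAVP, against 24.8, 23.9 and 22.8 CPM in vehicle (adjusted p = 0.0626). Prkar2b, a regulatory subunit of protein kinase A, had 158, 181 and 166 CPM in dDAVP, against 144, 129 and 120.1 CPM in vehicle (adjusted p = 0.0599). Lcn2, an iron-sequestering defence protein, had 455, 594 and 484 CPM in dDAVP, against 658, 630.0 and 527 CPM in vehicle (adjusted p = 0.0662). Fos and Prkar2b were higher in every dDAVP library, and Lcn2 overlapped.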
